A study of Mus musculus with 18 samples.

Results

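The genes described here encode the subunits of the interleukin-12 (IL-12) family of cytokines, together with IL-15 and its presenting receptor chain. They are the 7 genes Il12a, Il12b, Il23a, Il27, Ebi3, Il15 and Il15ra, chosen by name from what their products are known to do. Earlier results of these data were known when they were chosen. Each had 1 probe set with a single gene symbol, and all 7 passed the filter on low values that left 14003 of 19937 genes in the test. The data are 18 Affymetrix arrays of sorted mononuclear phagocytes from the colon lamina propria of 8-week-old BALB/c mice. After collagenase digestion, MHC+CD11chigh cells were split by sorting into 3 subsets by CD103, the integrin alpha E chain, and CD11b, the integrin alpha M chain. The 6 groups, with 3 arrays each, are CD103+CD11b- cells after DSS and untreated, CD103+CD11b+ cells after DSS and untreated, and CD103-CD11b+ cells after DSS and untreated. DSS is dextran sulfate sodium, given at 2%, which injures the colon epithelium and causes colitis. Arrays with no DSS in their title are called untreated. All groups share strain, age, tissue and gate. The sources used here do not give the length of DSS treatment, the number of mice behind an array, or whether replicates came from separate animals. The p-values therefore reflect variation among these samples, which may be technical.

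The IL-12 family consists of paired chains that are shared between cytokines. The p40 chain, encoded by Il12b, pairs with p35 (Il12a) to give IL-12, which drives interferon-gamma production by T and NK cells, and with p19 (Il23a) to give IL-23, which sustains IL-17- and IL-22-producing lymphocytes in the gut. EBI3 pairs with p28 (Il27) to give IL-27, and has also been described as a partner of p35 in IL-35. IL-15 is held on the surface of the producing cell by the receptor chain encoded by Il15ra and shown there to NK cells, CD8 T cells and intraepithelial lymphocytes. Conventional dendritic cells of the first type (cDC1), which in the gut carry CD103 without CD11b, are known as a source of IL-12 and of presented IL-15.

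The promoter windows of Il12b and Ebi3, taken from RefSeq (GRCm38.p6), are shown because Il12b had its highest means and Ebi3 its lowest in CD103+CD11b- cells. Il12b lies on the plus strand at chr11:44399813-44400112 and Ebi3 on the plus strand at chr17:55952373-55952672, each window running from 250 bases before to 50 after the annotated start. Capitals mark matches to the motifs searched.
Il12b: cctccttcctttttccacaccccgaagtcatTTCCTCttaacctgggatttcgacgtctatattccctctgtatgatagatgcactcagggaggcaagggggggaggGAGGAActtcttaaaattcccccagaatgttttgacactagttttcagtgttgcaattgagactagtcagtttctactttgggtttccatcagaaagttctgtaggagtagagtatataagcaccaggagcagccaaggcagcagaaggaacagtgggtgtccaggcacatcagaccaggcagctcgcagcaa
Ebi3: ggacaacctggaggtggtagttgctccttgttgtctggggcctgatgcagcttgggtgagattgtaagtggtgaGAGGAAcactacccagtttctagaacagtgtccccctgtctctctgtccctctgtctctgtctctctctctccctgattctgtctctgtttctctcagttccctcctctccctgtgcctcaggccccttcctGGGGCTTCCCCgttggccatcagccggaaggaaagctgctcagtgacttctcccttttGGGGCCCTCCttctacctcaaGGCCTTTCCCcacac
Of the 7 members, 4 had a window in the table used here. The motifs, searched on both strands, were GGG and CC with 5 bases of any kind between them for NF-kappaB, GAAA and GAAA with 2 bases between them for a pair of IRF half-sites, TTGCNNAA for C/EBP, TGANTCA for AP-1, GAGGAA for PU.1 and TATAAA for a TATA box. In the Il12b window only the PU.1 letters matched, at -219 on the minus strand and at -143 on the plus strand. In the Ebi3 window the NF-kappaB letters matched in an overlapping pair that starts at -44 and -43, and again from 14 and 35 after the start, and the PU.1 letters matched at -176. Of 32851 promoter windows of the same length, 50.8% held the NF-kappaB letters and 28.3% the PU.1 letters. The IRF pair was held by 3.44%, C/EBP by 10.8%, AP-1 by 7.81% and TATAAA by 13.6%. A match is a description of letters, and the arrays measured no binding. Sites whose letters differ from these fixed strings are missed, so a window without a match may still hold a site.

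The sorted fractions carried the markers of their gates. Itgae, which encodes CD103, averaged 9.61 ± 0.04 in DSS and 9.37 ± 0.09 in untreated CD103+CD11b- cells, against 7.44 ± 0.19 in DSS and 6.35 ± 0.11 in untreated CD103-CD11b+ cells (log2 RMA expression, SD, n = 3). Itgae was therefore higher in the DSS CD103-CD11b+ cells than in the untreated ones (log2 difference 1.08, limma adjusted p = 0.00103). Itgam, which encodes CD11b, averaged 6.13 ± 0.004 in DSS and 5.14 ± 0.51 in untreated CD103+CD11b- cells. Its means after DSS and in untreated cells were 7.36 and 7.31 in CD103+CD11b+ and 8.01 and 7.93 in CD103-CD11b+ cells. The cDC1 marker list of 12 genes had array means between 8.11 and 8.25 over both groups of CD103+CD11b- cells, against 6.71 to 6.88 in CD103+CD11b+ cells and 6.29 to 6.73 in CD103-CD11b+ cells. The macrophage list of 11 measured genes ran the other way, at 6.75 to 6.98 in CD103+CD11b+ cells and 7.63 to 8.42 in CD103-CD11b+ cells. In CD103+CD11b- cells it was at 6.45 to 6.56 after DSS and 5.89 to 6.18 in untreated cells. The median difference over the list there was 0.435, with 0 of 11 genes called. All 11 epithelial markers had group means above the filter level of 3.51 in every group, with array means of 7.93 to 8.99, and so had all 7 measured B and plasma cell markers. In these sorted bulk samples, fewer cells of a type and less RNA per cell cannot be told apart. Array medians lay between 3.99 and 4.09, and arrays of a group correlated at 0.965 to 0.982.

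Il12b, encoding the p40 chain shared by IL-12 and IL-23, had its highest level in CD103+CD11b- cells. Its values there were 7.22, 7.35 and 7.80 on the DSS arrays and 7.85, 8.15 and 7.45 on the untreated arrays. In CD103+CD11b+ cells they were 5.83, 5.71 and 5.70 after DSS and 7.14, 6.15 and 6.12 in untreated cells, and in CD103-CD11b+ cells 5.69, 5.65 and 6.26 after DSS and 5.74, 5.26 and 5.22 in untreated cells. Every array of CD103+CD11b- cells thus lay above every array of the other subsets, and the highest array outside them was replicate 1 of untreated CD103+CD11b+ cells, at 7.14.

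In untreated mice, Il12b was 5.33-fold higher in CD103+CD11b- cells relative to CD103-CD11b+ cells (log2 difference 2.41 ± 0.25, SE; limma adjusted p = 1.43e-06 by the Benjamini-Hochberg method over 14003 genes). It was 2.55-fold higher than in CD103+CD11b+ cells (1.35 ± 0.25, limma adjusted p = 0.00149). After DSS the same differences were 3.01-fold against CD103-CD11b+ cells (1.59 ± 0.25, limma adjusted p = 0.000235) and 3.28-fold against CD103+CD11b+ cells (1.71 ± 0.25, limma adjusted p = 0.000153). These differences held in all alternative settings tried. Relative to the within-group spread, the range of the group means of Il12b was 6.79 times the within-group SD, a ratio larger than that of 97.7% of all genes tested. Of 12 cDC1 markers, 12 were higher against untreated CD103-CD11b+ cells, 8 against untreated CD103+CD11b+ cells, 11 against DSS CD103-CD11b+ cells and 9 against DSS CD103+CD11b+ cells. Of 11 macrophage markers, 9, 7, 8 and 2 were lower in these comparisons, in that order. Their part in the Il12b result was not tested.

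Between the CD11b+ subsets, Il12b was called different in untreated mice and not after DSS. The difference between these subsets in the DSS change was itself not called (-1.19 ± 0.36, limma adjusted p = 0.869). In untreated mice, Il12b was 2.09-fold higher in CD103+CD11b+ cells relative to CD103-CD11b+ cells (1.06 ± 0.25, limma adjusted p = 0.0199). The 2 groups did not overlap, as was the case for 17.4% of all genes. That call was lost when replicate 1 of the CD103+CD11b+ cells was left out (0.73, limma adjusted p = 0.112), when replicate 2 or 3 of the CD103-CD11b+ cells was left out (0.99, adjusted p = 0.0837, and 0.97, adjusted p = 0.0760), and when the fit held only these groups (limma adjusted p = 0.115). After DSS the groups overlapped and the difference was -0.12 (95% interval -0.65 to 0.41, limma adjusted p = 0.966).

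**Figure D1:**
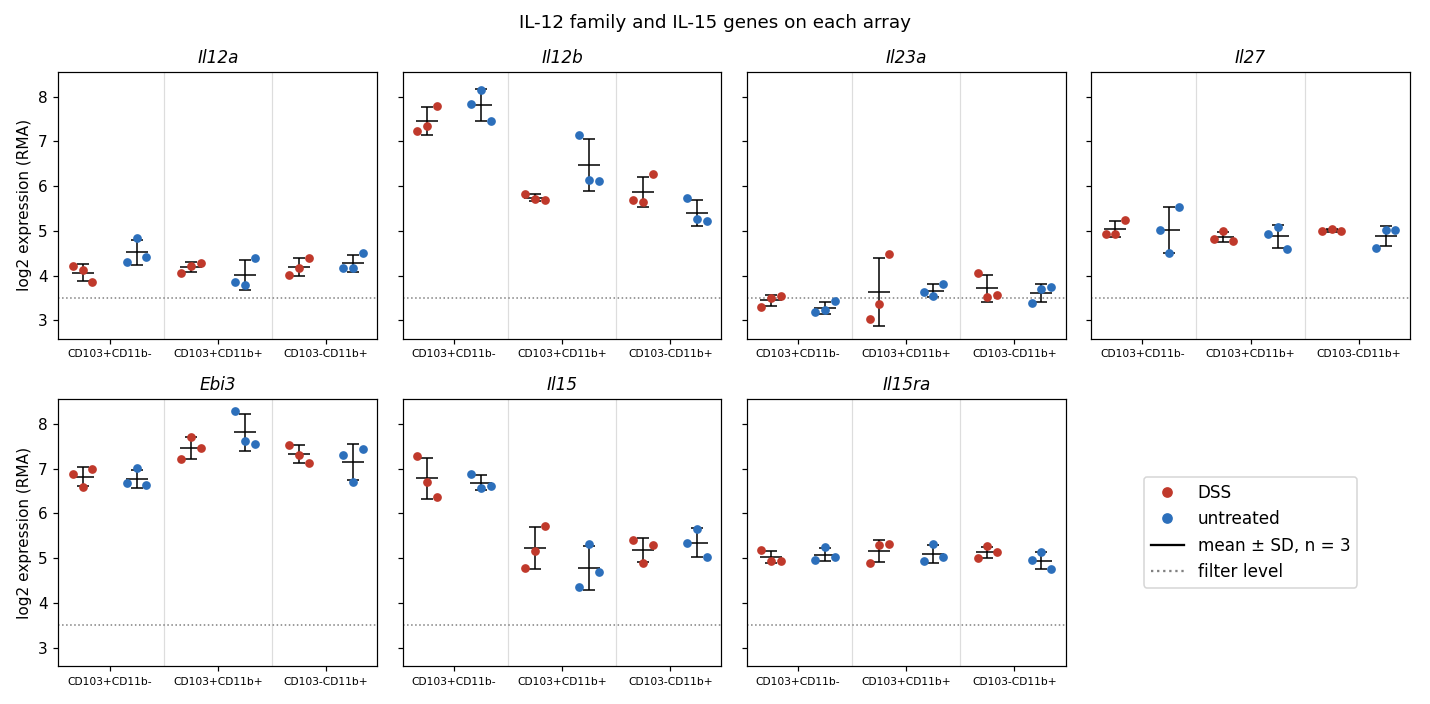
Log2 RMA expression of the 7 genes on each array (points), with the mean ± SD of 3 arrays (black), by subset on the x axis, DSS left of untreated; the dotted line is the filter level of 3.51. Il12b and Il15 are highest in CD103+CD11b- cells in both conditions, and Ebi3 has its lowest means there. The group means of Il12a, Il23a, Il27 and Il15ra span 0.51, 0.44, 0.18 and 0.22, against 1.04 for Ebi3.

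Il15, which encodes the cytokine that supports NK cells, memory CD8 T cells and intraepithelial lymphocytes, followed the same order at the top. Its values in CD103+CD11b- cells were 7.27, 6.70 and 6.37 after DSS and 6.88, 6.57 and 6.61 in untreated cells. In CD103+CD11b+ cells they were 4.79, 5.16 and 5.72 after DSS and 4.35, 5.32 and 4.69 in untreated cells, and in CD103-CD11b+ cells 5.40, 4.89 and 5.29 after DSS and 5.35, 5.66 and 5.02 in untreated cells. No array of the CD11b+ subsets reached the lowest CD103+CD11b- array, at 6.37.

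In untreated mice Il15 was 3.74-fold higher in CD103+CD11b- cells relative to CD103+CD11b+ cells (1.90 ± 0.27, limma adjusted p = 7.77e-05) and 2.54-fold higher than in CD103-CD11b+ cells (1.35 ± 0.27, limma adjusted p = 0.00193). After DSS it was 2.95-fold higher than in CD103+CD11b+ cells (1.56 ± 0.27, limma adjusted p = 0.000753) and 3.01-fold higher than in CD103-CD11b+ cells (1.59 ± 0.27, limma adjusted p = 0.000455). All of these calls held in the alternatives tried. The CD103+CD11b+ and CD103-CD11b+ cells did not separate, with differences of -0.56 in untreated mice (95% interval -1.12 to 0.01) and 0.03 after DSS (95% interval -0.53 to 0.59). The ratio of the range of its group means to the within-group SD, 5.24, was above that of 95.2% of genes, against a median of 1.88 over all genes.

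Ebi3, the chain that completes IL-27, had its lowest means in CD103+CD11b- cells. Its values were 6.87, 6.58 and 6.99 in DSS and 6.68, 7.004 and 6.65 in untreated CD103+CD11b- cells. In CD103+CD11b+ cells they were 7.23, 7.71 and 7.45 after DSS and 8.28, 7.62 and 7.54 in untreated cells, and in CD103-CD11b+ cells 7.53, 7.31 and 7.13 after DSS and 7.31, 6.70 and 7.43 in untreated cells. The CD103+CD11b- and CD103+CD11b+ groups did not overlap in either condition, as was the case for 22% of all genes in untreated and 22.8% in DSS cells.

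Ebi3 was 2.05-fold lower in untreated CD103+CD11b- cells relative to untreated CD103+CD11b+ cells (-1.04 ± 0.21, limma adjusted p = 0.00350), a call that held in all alternatives tried. After DSS the difference was -0.65 ± 0.21 and missed the threshold (limma adjusted p = 0.0916), and it passed when only these groups were fitted (limma adjusted p = 0.0432). The other subset differences of Ebi3 were not called. They were 0.67 ± 0.21 for CD103+CD11b+ minus CD103-CD11b+ cells in untreated mice (limma adjusted p = 0.0934), 0.14 for the same pair after DSS, and -0.37 and -0.51 for CD103+CD11b- minus CD103-CD11b+ cells in untreated and DSS mice. Replicate 1 of untreated CD103+CD11b+ cells held the highest value of its group for both Il12b and Ebi3 and the lowest for Il15. On that array the mean of the 21 measured maturation genes was 8.45, beside 8.40 and 8.52 on the other 2 arrays, that of the macrophage list was 6.78, beside 6.98 and 6.86, and that of the cDC2 list 7.23, beside 7.27 and 7.37. Their part in these values was not tested.

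Il12a, Il23a, Il27 and Il15ra were not called in any of the 13 comparisons. For Il12a, the p35 chain of IL-12, values ran from 3.85 to 4.22 in DSS and from 4.31 to 4.84 in untreated CD103+CD11b- cells. Over both CD11b+ subsets they ran from 4.01 to 4.40 after DSS and from 3.79 to 4.50 in untreated cells. The largest subset difference of Il12a, 0.51 in untreated CD103+CD11b- minus CD103+CD11b+ cells (95% interval 0.14 to 0.89, limma adjusted p = 0.102), passed only when replicate 3 of the CD103+CD11b+ cells was left out (0.70, limma adjusted p = 0.0191).

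For Il23a, the p19 chain of IL-23, 10 of 18 arrays lay above the filter level of 3.51, and none of the 3 untreated CD103+CD11b- arrays did. Its values were 3.31, 3.49 and 3.55 in DSS and 3.18, 3.22 and 3.42 in untreated CD103+CD11b- cells, and the highest was 4.49, on 1 array of DSS CD103+CD11b+ cells. The other 2 arrays of that group were at 3.02 and 3.37. The difference of untreated CD103+CD11b- minus CD103+CD11b+ cells was -0.38 (95% interval -0.92 to 0.15, not called). Subset differences of Il23a are not resolved at this signal.

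Il27, the p28 chain, had group means between 4.86 and 5.04, and Il15ra, the chain that presents IL-15, between 4.94 and 5.16. The range of group means was 0.18 for Il27 and 0.22 for Il15ra, which is 0.678 and 1.21 times their within-group SD, and 2.03% and 18.4% of genes had a smaller ratio. The difference of Il15ra of untreated CD103+CD11b- minus CD103-CD11b+ cells was 0.14 (95% interval -0.18 to 0.45), and that of untreated CD103+CD11b- minus CD103+CD11b+ cells -0.02 (95% interval -0.33 to 0.30). In the same comparisons Il15 differed by 1.35 and 1.90. A value that missed the threshold does not show equal expression, and these intervals bound the difference.

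Counted over the members, 2 of 7 were called in untreated CD103+CD11b- cells set against CD103-CD11b+ cells, both higher, where 10.3% of all genes were called. In untreated CD103+CD11b- cells set against CD103+CD11b+ cells 3 of 7 were called, 2 higher and 1 lower, against 6.86% of all genes. Untreated CD103+CD11b+ cells set against CD103-CD11b+ cells gave 1 of 7, higher, against 4.11%. After DSS, 2 of 7 were called, both higher, in CD103+CD11b- cells set against CD103-CD11b+ cells (8.53% of all genes) and 2 of 7 in CD103+CD11b- cells set against CD103+CD11b+ cells (5.96%). In DSS CD103+CD11b+ cells set against CD103-CD11b+ cells none was called, and 1.58% of all genes were. The median log2 difference over the 7 members was 0.14 in untreated CD103+CD11b- cells set against CD103-CD11b+ cells and 0.14 against CD103+CD11b+ cells, beside 0.01 and -0.06 over all genes. After DSS the same medians were -0.115 and -0.122, beside -0.01 and 0.002 over all genes. Il12b and Il15 were higher in all 4 comparisons of CD103+CD11b- cells with a CD11b+ subset, as were 230 genes, or 1.64% of those tested. Ebi3 was lower in 1 of these 4 comparisons, and the other 4 members had no called difference. Since the members were chosen with earlier results of these data known, these counts are descriptions.

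**Figure D2:**
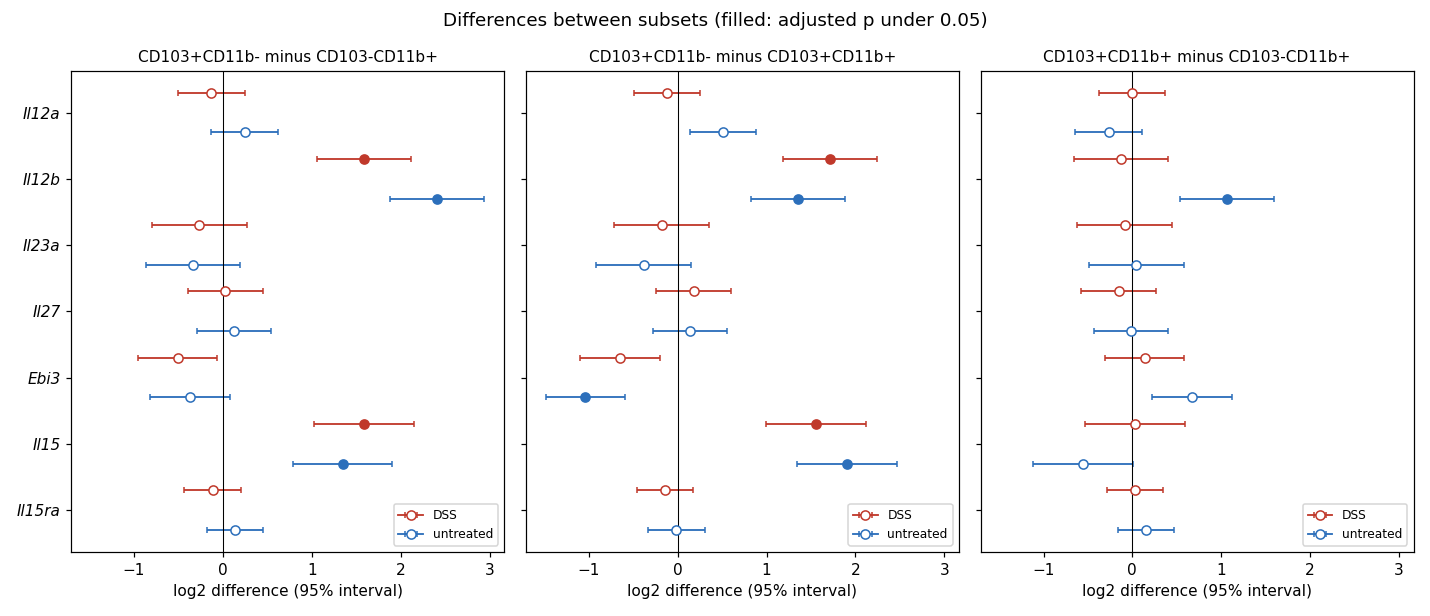
Log2 difference between subsets for each gene, with 95% intervals from limma, for DSS (red) and untreated (blue) cells in 3 panels; filled points have an adjusted p under 0.05. Filled points appear for Il12b and Il15 in both panels with CD103+CD11b- cells, for Ebi3 in untreated CD103+CD11b- minus CD103+CD11b+ cells, and for Il12b in untreated CD103+CD11b+ minus CD103-CD11b+ cells.

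Across the 18 arrays Il12b and Il15 had a Pearson r of 0.683 (Spearman 0.529), and Ebi3 and Il15 of -0.792 (Spearman -0.746). These coefficients describe arrays that cluster by subset. After group means were removed, r was -0.401 for Il12b with Il15 and -0.35 for Ebi3 with Il15. Il12b and Ebi3 were at -0.392 over all arrays and at 0.483 within groups. Il15 and Il15ra were at 0.088 over all arrays and at 0.63 within groups. The arrays of 1 experiment number are not independent points.

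**Figure D3:**
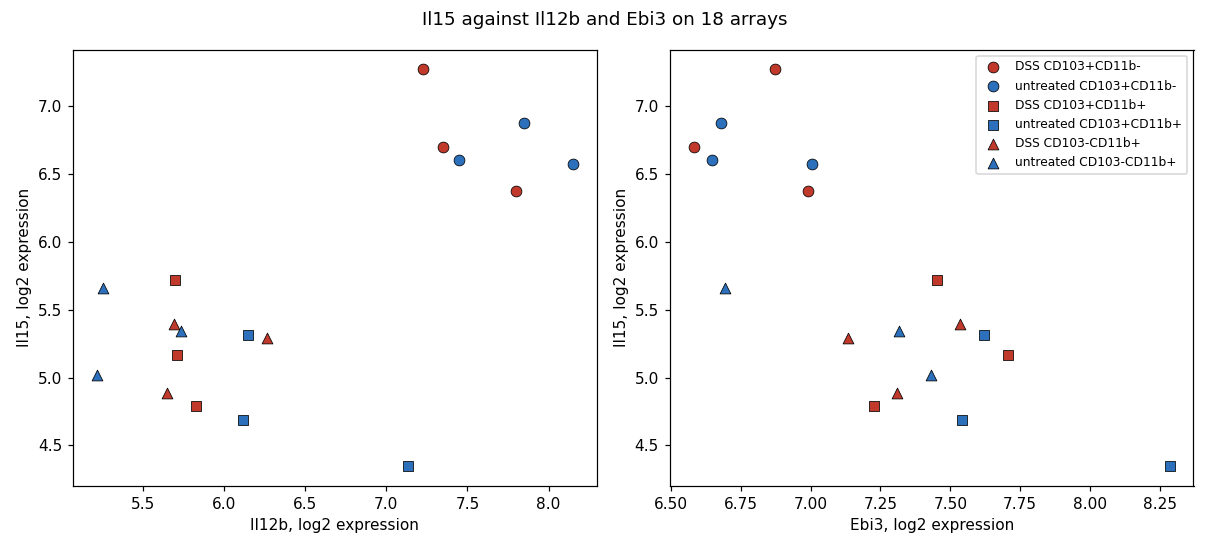
Il15 against Il12b (left) and against Ebi3 (right), both as log2 RMA expression, on 18 arrays, with DSS in red, untreated in blue and a symbol for each subset. The 6 arrays of CD103+CD11b- cells, at Il15 of 6.37 or more, stand apart from the other 12 arrays in both panels.

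DSS moved no member past the threshold in any subset. The log2 difference of Il12b, DSS minus untreated, was -0.36 in CD103+CD11b- cells (95% interval -0.89 to 0.17), -0.72 in CD103+CD11b+ cells (-1.25 to -0.19) and 0.46 in CD103-CD11b+ cells (-0.06 to 0.99), none of them called. The DSS and untreated CD103+CD11b+ groups did not overlap for Il12b (limma adjusted p = 0.333), as was the case for 15.5% of all genes. Without replicate 1 of the untreated CD103+CD11b+ cells the difference was -0.39 (limma adjusted p = 0.813). The difference between subsets in the DSS change of Il12b, CD103+CD11b+ minus CD103-CD11b+, was -1.19 ± 0.36, also not called (limma adjusted p = 0.869). Beside this result, Itgae was higher in DSS than in untreated CD103-CD11b+ cells (above), while 1 of the 12 cDC1 markers was called higher there, with a median difference of 0.185 over the list. Their part in it was not tested.

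For Il12a, the DSS and untreated CD103+CD11b- groups did not overlap, as was the case for 12.3% of all genes. The difference was -0.46 (95% interval -0.83 to -0.08, limma adjusted p = 0.750). Il15 differed after DSS by 0.10 in CD103+CD11b-, 0.44 in CD103+CD11b+ and -0.15 in CD103-CD11b+ cells, and Ebi3 by 0.04, -0.35 and 0.18. Il15ra differed by -0.06, 0.06 and 0.19, Il27 by 0.02, -0.02 and 0.12, and Il23a by 0.17, -0.03 and 0.10. None of these was called.

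The whole table held few DSS calls, so a count of 0 of 7 members lies near the background. Of all genes, 0.129% were called in CD103+CD11b- cells, 0.0857% in CD103+CD11b+ cells and 0.1% in CD103-CD11b+ cells, or 18, 12 and 14 genes, although 852, 1410 and 1074 genes had an unadjusted limma p under 0.05. In the 3 comparisons of the DSS change between subsets 0% of genes were called (510, 676 and 778 genes had an unadjusted limma p under 0.05). With the 3 subsets averaged within each of the 6 experiments, 0.186% of genes were called and no member, the members' differences lying between -0.21 for Il12b and 0.13 for Il15. Untreated and DSS cells came from different experiments, so DSS and experiment cannot be told apart. Of 7 tested neutrophil genes, 1 was higher after DSS in CD103+CD11b- cells, 1 in CD103+CD11b+ cells and 0 in CD103-CD11b+ cells, with median differences of 0.811, 0.725 and 0.434. None of the 11 epithelial markers was called, and their medians were -0.403, -0.473 and -0.251. Their part in the members' values was not tested.

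**Figure D4:**
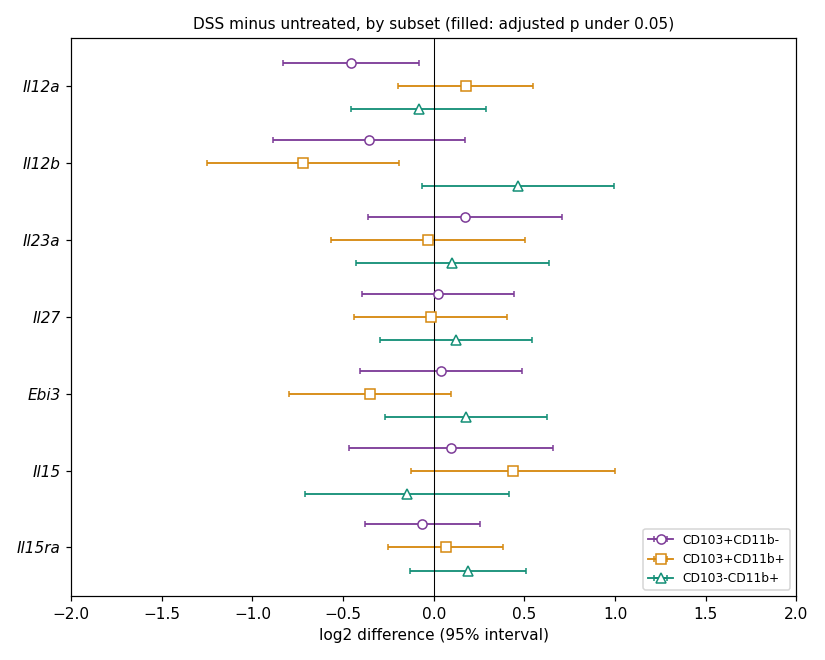
Log2 difference, DSS minus untreated, for each gene in CD103+CD11b- (circles), CD103+CD11b+ (squares) and CD103-CD11b+ cells (triangles), with 95% intervals from limma. All 21 points are open, since no adjusted p was under 0.05; the point for Il12b in CD103+CD11b+ cells, at -0.72, lies farthest from 0.

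Transcription factors known to act on these genes also differed between subsets. Of 20 tested, 6 were higher and 5 lower in untreated CD103+CD11b- cells relative to CD103-CD11b+ cells, and 1 higher and 3 lower than in CD103+CD11b+ cells. After DSS the counts were 5 and 3 against CD103-CD11b+ cells and 2 and 2 against CD103+CD11b+ cells. These counts include calls lost in some of the 14 alternatives, such as Batf in 8 and Spi1 in 6 of them against untreated CD103-CD11b+ cells. Of all genes, 10.3% were called in untreated CD103+CD11b- cells against CD103-CD11b+ cells and 6.86% against CD103+CD11b+ cells. After DSS the shares were 8.53% and 5.96%. The same shares apply to the lists that follow. Irf8, which encodes a factor required for cDC1 cells and for Il12b transcription, averaged 8.78 ± 0.21 in DSS and 8.86 ± 0.12 in untreated CD103+CD11b- cells. Its mean was 7.25 ± 0.30 in DSS and 6.99 ± 0.25 in untreated CD103+CD11b+ cells, and 7.82 ± 0.23 in DSS and 7.57 ± 0.27 in untreated CD103-CD11b+ cells. Irf8 was higher in CD103+CD11b- cells in all 4 comparisons, by 1.29 against CD103-CD11b+ and 1.87 against CD103+CD11b+ cells in untreated mice and by 0.96 and 1.52 after DSS. Its mean was lowest in CD103+CD11b+ cells in both conditions, and that of Il12b was lowest in CD103-CD11b+ cells in untreated mice and in CD103+CD11b+ cells after DSS, where the CD11b+ groups overlapped.

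Zeb2, encoding a repressor that opposes the cDC1 fate, was lower in CD103+CD11b- cells relative to CD103-CD11b+ cells by -2.38 on the log2 scale in untreated mice and by -1.78 after DSS, and relative to CD103+CD11b+ cells by -1.20 and -0.82. Irf4, the factor of CD11b+ dendritic cells, was lower in CD103+CD11b- cells relative to CD103+CD11b+ cells by -1.07 in untreated mice and -0.84 after DSS. Relb, an NF-kappaB subunit of mature dendritic cells, was higher in untreated CD103+CD11b- and CD103+CD11b+ cells relative to CD103-CD11b+ cells, by 0.68 and 0.77. The second of these calls, like that of Batf3 against untreated CD103-CD11b+ cells (0.68), was lost in 1 of 14 alternatives. Batf3 was at 6.63, 6.60 and 6.71 in untreated CD103+CD11b- cells and higher in mean, at 7.07, 6.66 and 6.96, in untreated CD103+CD11b+ cells. After DSS its values were 6.96, 6.95 and 6.34 in CD103+CD11b- and 6.46, 6.39 and 6.39 in CD103+CD11b+ cells.

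Receptors that induce the members were called in both directions. Of 22 tested, 2 were higher and 8 lower in untreated CD103+CD11b- cells relative to CD103-CD11b+ cells, 2 higher and 3 lower than in CD103+CD11b+ cells, and 0 higher and 5 lower in CD103+CD11b+ cells relative to CD103-CD11b+ cells. After DSS the counts were 2 and 6, 2 and 2, and 0 and 4. In CD103+CD11b+ cells relative to CD103-CD11b+ cells, 4.11% of all genes were called in untreated mice and 1.58% after DSS. Tlr3, a receptor for double-stranded RNA and a cDC1 marker, was higher in untreated CD103+CD11b- cells relative to CD103-CD11b+ cells by 1.18 and relative to CD103+CD11b+ cells by 0.83. Tlr4, the receptor for lipopolysaccharide, averaged 5.46 ± 0.10 in DSS and 4.94 ± 0.36 in untreated CD103+CD11b- cells, against 7.24 ± 0.23 in DSS and 6.90 ± 0.35 in untreated CD103-CD11b+ cells, differences of -1.78 and -1.96. Tlr2, which senses bacterial lipopeptides, was lower in untreated CD103+CD11b- cells relative to CD103-CD11b+ cells by -1.31 and Tlr7, which senses single-stranded RNA, by -1.57. Macrophage markers were lower in the same comparison in 9 of 11 cases, and their part in the receptor result was not tested.

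Of the list drawn up as inhibitors of the members, 13 genes were tested, and their action on each member was not measured. In untreated CD103+CD11b- cells, 2 were higher and 2 lower than in CD103-CD11b+ cells, and 1 higher and 0 lower than in CD103+CD11b+ cells. Ptger2, a prostaglandin E2 receptor, was higher in CD103+CD11b- cells relative to CD103+CD11b+ cells by 1.53 in untreated mice and 1.51 after DSS, and relative to DSS CD103-CD11b+ cells by 1.28. Il10, encoding the cytokine that represses Il12b, was at 4.93, 5.28 and 5.13 in untreated CD103+CD11b- cells and 5.83, 7.83 and 5.97 in untreated CD103-CD11b+ cells, and was called lower in CD103+CD11b- (-1.43 ± 0.37, limma adjusted p = 0.0166). The high value is a single array, and the call was lost when it was left out and in 2 other alternatives, with an adjusted p of up to 0.0795.

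**Figure D5:**
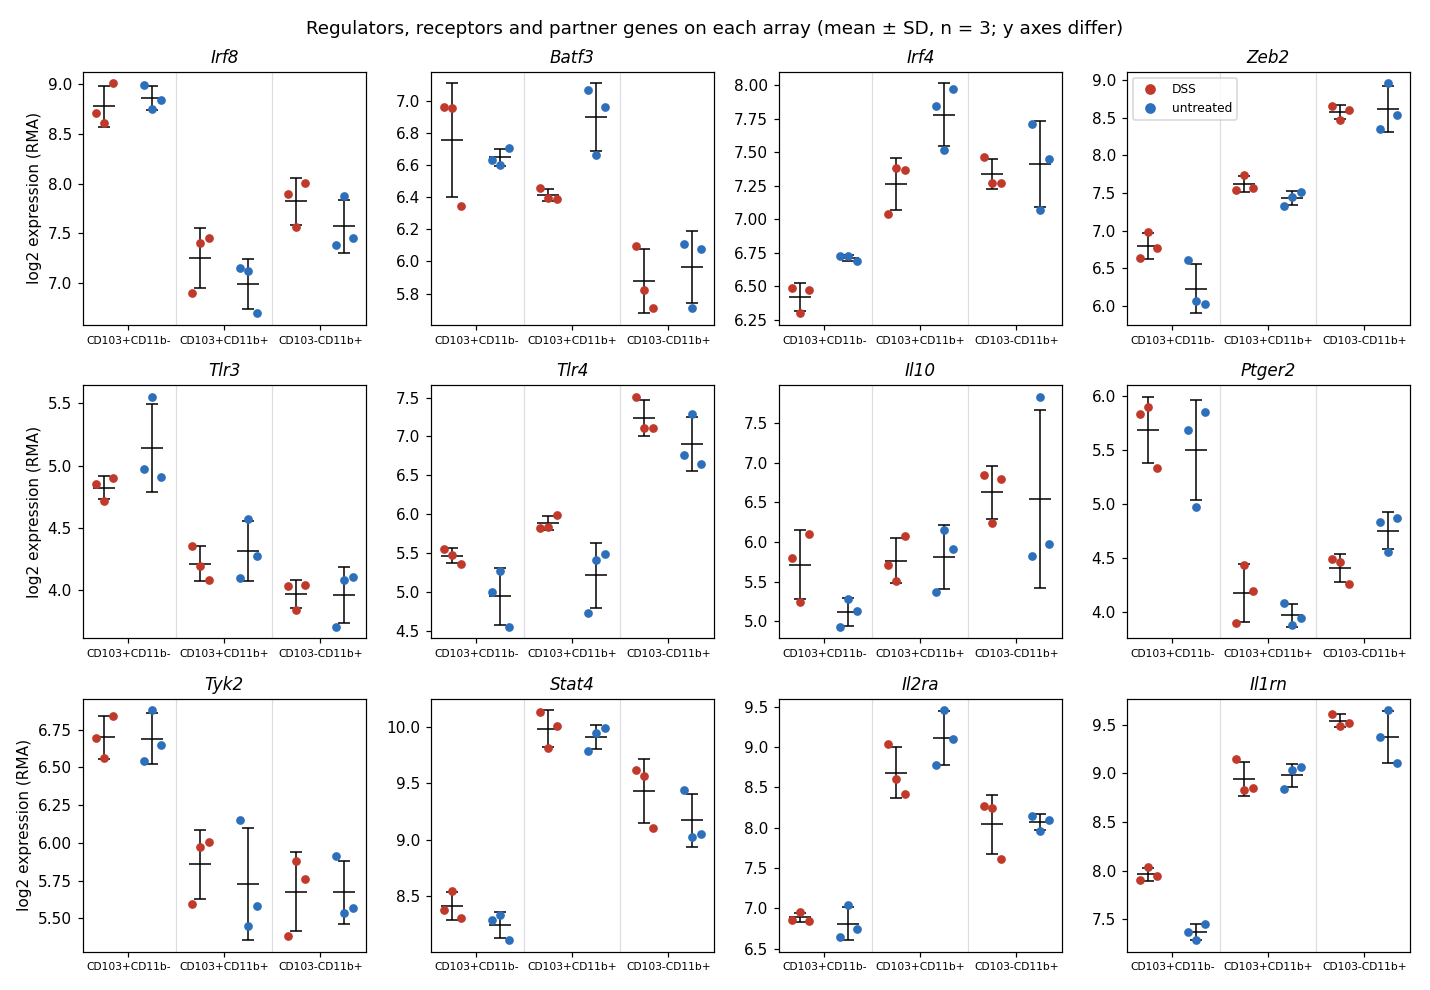
Log2 RMA expression of 12 regulators, receptors and partner genes on each array (points), with the mean ± SD of 3 arrays, DSS (red) left of untreated (blue) in each subset; y axes differ between panels. Irf8, Tlr3 and Tyk2 are highest in CD103+CD11b- cells, and Zeb2, Tlr4, Stat4, Il2ra and Il1rn have lower means there than in both other subsets of the same condition.

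Genes of the receiving side were measured in the same cells. Of 10 tested IL-12 family receptor and signalling genes, 3 were higher and 2 lower in untreated CD103+CD11b- cells relative to CD103-CD11b+ cells, 2 and 2 than in CD103+CD11b+ cells, and after DSS 2 and 2, and 1 and 2. Tyk2, a kinase of the IL-12 and IL-23 receptors, was higher in CD103+CD11b- cells by 1.02 against CD103-CD11b+ and 0.96 against CD103+CD11b+ cells in untreated mice. Stat4, the transducer of IL-12 signals, was lower in CD103+CD11b- cells, by -0.93 against CD103-CD11b+ and -1.67 against CD103+CD11b+ cells in untreated mice and -1.02 and -1.58 after DSS. Il12rb2, a chain of the IL-12 receptor, was lower in CD103+CD11b- cells after DSS, by -1.16 against CD103-CD11b+ and -0.88 against CD103+CD11b+ cells.

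Il2ra, Il2rb, Stat5a and Stat5b were the 4 tested genes of the list on IL-15 and IL-2 receptor chains and their signalling. None was higher in CD103+CD11b- cells, 1 was lower than in CD103-CD11b+ cells and 3 were lower than in CD103+CD11b+ cells, with the same counts in untreated and DSS mice. The gene lower than in CD103-CD11b+ cells was Il2ra, the IL-2 receptor alpha chain, which is not part of the IL-15 receptor. Il2rb, the beta chain used by both cytokines, was not called in any subset comparison. Il2ra averaged 6.89 ± 0.06 in DSS and 6.81 ± 0.21 in untreated CD103+CD11b- cells, against 8.68 ± 0.31 in DSS and 9.11 ± 0.34 in untreated CD103+CD11b+ cells. The differences were -1.80 after DSS and -2.30 in untreated mice. Stat5a and Stat5b, transducers of IL-2 and IL-15 signals, were lower in untreated CD103+CD11b- cells relative to CD103+CD11b+ cells by -1.08 and -0.93. The median over these 4 genes was -1.01 in untreated CD103+CD11b- cells set against CD103+CD11b+ cells, beside -0.06 over all genes. The subset highest in Il15 was thus lowest in Il2ra.

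The list of partner cytokines also held inhibitors of cytokines, among them Il22ra2 and Il1rn, and its genes were lower where they differed. Of 16 tested, none was higher and 4 were lower in CD103+CD11b- cells relative to CD103-CD11b+ cells, and none was higher and 2 were lower than in CD103+CD11b+ cells, in untreated and in DSS mice alike. Il22ra2, which encodes the soluble IL-22 binding protein, averaged 5.04 ± 0.13 in DSS and 4.72 ± 0.38 in untreated CD103+CD11b- cells, against 8.60 ± 0.37 in DSS and 9.02 ± 0.43 in untreated CD103-CD11b+ cells, differences of -3.57 and -4.30. Il1rn, the IL-1 receptor antagonist, was lower in CD103+CD11b- cells relative to CD103-CD11b+ cells by -2.01 in untreated mice and -1.58 after DSS. Il1a was lower by -1.23 in untreated CD103+CD11b- cells relative to CD103-CD11b+ cells.

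Interferon-gamma response genes and type I interferon-stimulated genes were also counted. What set their levels was not tested. Of 17 interferon-gamma response genes, 5 were higher and 1 lower in untreated CD103+CD11b- cells relative to CD103-CD11b+ cells, 4 higher and 0 lower than in CD103+CD11b+ cells, and after DSS 6 and 1, and 2 and 0. Cxcl9, a chemokine that draws CXCR3+ lymphocytes, averaged 9.90 ± 0.12 in DSS and 9.94 ± 0.17 in untreated CD103+CD11b- cells. It was higher in untreated CD103+CD11b- cells relative to CD103-CD11b+ cells by 1.08 and relative to CD103+CD11b+ cells by 1.02. After DSS it averaged 9.41 ± 0.38 in CD103+CD11b+ and 9.56 ± 0.33 in CD103-CD11b+ cells, and it was not called between subsets. Tap1, the peptide transporter of class I presentation, was higher by 1.32 and 0.75 in untreated mice and by 1.30 and 1.13 after DSS. The median over the 17 genes was 0.33 in untreated CD103+CD11b- cells set against CD103-CD11b+ cells, beside 0.01 over all genes. Of 18 type I interferon-stimulated genes 2 were higher and 1 lower in each untreated comparison of CD103+CD11b- cells, with Mx1 higher by 0.81 and 0.85, and their median against CD103-CD11b+ cells was -0.23.

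Genes of lymphocyte effector programmes were also counted. Of 14 tested, none was higher and 1 was lower in untreated CD103+CD11b- cells relative to CD103-CD11b+ cells, where 10.3% of all genes were called, and 1 was higher and 3 lower than in CD103+CD11b+ cells, where 6.86% were. Ccr6, a chemokine receptor of IL-17-producing lymphocytes that dendritic cells also carry, was lower in CD103+CD11b- cells relative to CD103+CD11b+ cells by -1.11 in untreated mice and -0.87 after DSS. Il18rap, a chain of the IL-18 receptor, was lower by -2.23 and -1.42. Of 11 measured T, NK and innate lymphoid markers, 9 had means above the filter level in every group. Of 9 tested markers, 2 were lower in CD103+CD11b- cells than in CD103-CD11b+ cells and 1 than in CD103+CD11b+ cells. These counts were the same in both conditions, and none was higher. The part of these markers in the effector gene values was not tested. Of 20 dendritic cell maturation genes, 5 were higher and 2 lower in untreated CD103+CD11b- cells relative to CD103-CD11b+ cells and 1 higher and 4 lower than in CD103+CD11b+ cells. Laptm4b was higher in CD103+CD11b- cells by 1.97 and 1.53 in those comparisons, and Socs2 lower by -0.96 and -1.45. None of the 10 lists gave a call in any DSS comparison within a subset, where 0.129%, 0.0857% and 0.1% of all genes were called.

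The genes whose levels over the 18 arrays were most like a member's were listed by Pearson's r. For Il12b they were 1700025G04Rik (0.948), Sdcbp2 (0.932), the cDC1 chemokine receptor Xcr1 (0.926), Tubgcp2 (0.922) and Clec1a (0.922). For Il15 they were Ppt1 (0.95), P2ry14 (0.949), Rab7b (0.937), P3h2 (0.935) and Vav3 (0.932), and for Ebi3 Gng4 (0.909), Zc3h10 (0.907), Rbm42 (0.9), Bcl9l (0.899) and Ehd1 (0.899). The lists shared no gene. The best match was lower for the members without a called difference, at 0.713 for Il12a, 0.803 for Il23a, 0.786 for Il27 and 0.77 for Il15ra. With group means removed, the r of Xcr1 with Il12b was 0.582 and that of Ppt1 with Il15 was 0.649, while Zc3h10 and Ehd1 stayed at 0.852 and 0.851 with Ebi3. For Rtf1 with Il23a it was 0.905, against 0.8 over all arrays, where the Spearman coefficient was only 0.47. Il23a lay near the filter level, and 1 array of DSS CD103+CD11b+ cells was at 4.49, beside 3.02 and 3.37. The part of that array in these coefficients was not tested.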

How the data were processed

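The deposited table holds log2 expression values, 1 per probe set and array, made by the authors with RMA per the submitters' processing notes. The method includes background correction and quantile normalization. Its version and the genome build are not given in the sources used here. Per the labels' protocols, 5 ng of total RNA was amplified (Ovation Pico) and labelled (Encore biotin). The values were used as deposited, and no per-sample column was left unused.

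Of 34760 probe sets, 21640 carried 1 symbol in the platform annotation, 1321 several and 11799 none, and 21553 matched the reference table by gene ID. A probe set was kept if above the 40th percentile of all values (3.51) in at least 3 of 18 arrays, and the one with the highest mean stood for its gene. No detection calls were used here, so this level does not mark a background.

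All 18 arrays were fitted together, with 6 group means, and empirical Bayes, by limma 3.58.1 under R 4.3.3 (with data.table version 1.17.8). The 13 two-sided comparisons were the subset pairs in each condition, the DSS change in each subset, how those changes differed between subsets, and DSS over all subsets on experiment means. Calls needed an adjusted p under 0.05 (Benjamini-Hochberg, all 14003 genes). The procedure was tested on simulated data.

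Array titles carry an experiment number shared by the subsets of a condition, which was taken as pairing them. Residuals of same-numbered arrays correlated with a median of 0.246 in untreated (8 of 9 pairs over 0.1) and 0.184 in DSS cells (9 of 9). For other pairs the medians were -0.124 and -0.134. Group means were removed first, so negative values in other pairs follow in part from positive ones in same-numbered pairs. The consensus correlation within an experiment number was 0.0596.

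The members and gene lists were chosen with earlier results of these data known. Genes named from a list are up to 4 called genes with the largest differences per comparison. Others named were chosen after their values were seen. Genes most like a member are the 5 with the highest Pearson's r. Lists hold 286 entries.

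Alternatives were no filter, a stricter filter (50th percentile), quantile normalization again or equal array medians, another prior, the mean of a gene's kept probe sets, only the groups compared, the experiment as replicate block, and each replicate left out.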

Additional observations from a re-analysis of the deposited data

How the results depend on the processing

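Of 140 values of called member differences under the alternatives, 136 kept their call and 4 did not, all 4 for Il12b in untreated CD103+CD11b+ cells set against CD103-CD11b+ cells (given above). None reversed. Of 1359 values of uncalled differences, 2 passed the threshold, the Il12a and Ebi3 differences given above, and 80 changed sign. With experiment as a replicate block no member call changed. Il12b in untreated CD103+CD11b- cells set against CD103-CD11b+ cells had a blocked adjusted p of 4.52e-07, and the DSS change in CD103+CD11b+ minus that in CD103-CD11b+ cells one of 0.427 (limma).

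Counts of called genes moved by over 1.5 times as follows. With only the groups compared, 150 genes were called in untreated CD103+CD11b+ cells set against CD103-CD11b+ cells (575 as reported), 0 for DSS in CD103+CD11b+ cells and 3 for DSS in CD103-CD11b+ cells. With a trended, robust prior 24 were called for DSS in CD103-CD11b+ cells, 2 for the DSS change in CD103+CD11b- minus CD103+CD11b+ cells and 51 for DSS over all subsets, where no filter gave 16. Leaving out 1 array gave 315 to 571 in untreated CD103+CD11b+ cells set against CD103-CD11b+ cells, 97 to 203 in DSS CD103+CD11b+ cells set against CD103-CD11b+ cells, 5 to 12 for DSS in CD103+CD11b- cells, 5 to 20 in CD103+CD11b+ cells, 5 to 29 in CD103-CD11b+ cells, 0 to 1 for each difference of DSS changes, and 16 to 35 for DSS over all subsets. Leaving out a whole experiment, an alternative added after seeing the data, gave 7 to 31 for the last. Quantile normalization again turned the split of untreated CD103+CD11b+ against CD103-CD11b+ calls to 242 higher and 309 lower, against 330 and 245 as reported; it gave 9 and 3 for DSS in CD103+CD11b+ cells and 14 and 6 for DSS over all subsets, against 7 and 5, and 21 and 5.

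Of the calls in the pathway lists, some were lost in at least 1 alternative and none reversed. These were 24 of 51 in untreated CD103+CD11b- cells set against CD103-CD11b+ cells, 11 of 35 against CD103+CD11b+ cells, and 13 of 21 in untreated CD103+CD11b+ cells set against CD103-CD11b+ cells. After DSS they were 14 of 40, 11 of 29 and 4 of 9. Levels near 3.51 limit Il23a, and 3 arrays a group limit all differences.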
